A study of Homo sapiens with 9 samples.

Results

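The genes described here are 54 genes of the G2/M transition and of mitosis, out of 27111 genes measured by RNA-seq in the series. They were chosen by symbol, from a list of cyclins, mitotic kinases, checkpoint, kinetochore, spindle, chromosome and cytokinesis genes, many of them with CCAAT boxes in their promoters. All 54 had enough reads to be tested. The samples were multicellular tumor spheroids (MTSs) of PC3, an established human prostate cancer cell line derived from a bone metastasis. The cells had been stably transduced with lentiviral particles carrying no insert (Empty), the long isoform of NF-YA (NF-YAl) or the short isoform (NF-YAs), and were selected with puromycin. The inserts were the murine sequences, added to the endogenous human gene that all groups, Empty included, still carry. Each group had 3 libraries, and each library held RNA of pooled MTSs. The labels letter them from A to C, except that NF-YAl has a library D in place of C. Each group is a transduced cell population, so that the insert and the population cannot be told apart.

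NF-Y is a trimeric factor that binds the CCAAT box, and NF-YA is the subunit that contacts the DNA sequence, on a dimer of NF-YB with NF-YC. Genes needed late in the cell cycle are typically kept off in resting and G1 cells by a repressor complex bound at the cell cycle genes homology region (CHR), and are switched on in G2 by complexes that include MYBL2 (B-MYB) and FOXM1, with NF-Y bound at CCAAT boxes nearby. Their products then act in order: cyclins and CDK1 drive entry, the spindle checkpoint waits for attached kinetochores, and the anaphase-promoting complex with CDC20 releases the chromosomes before cytokinesis.

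The promoters of 10 members are shown first because the groups differ in the protein that reads the CCAAT box. Each line gives the 180 bases before the annotated transcript start from the RefSeq promoter table (GRCh38.p14), read 5′ to 3′ on the strand of the gene. Capitals mark CCAAT boxes (CCAAT, or ATTGG on the other strand) and CHR elements (TTTGAA, or TTCAAA on the other strand, and TTCGAA). CCNB1 and CCNB2 encode the mitotic B-type cyclins, CDC25C the phosphatase that activates CDK1, TOP2A the topoisomerase that untangles chromosomes, and PLK1 a mitotic kinase. HJURP, ESPL1, KIF18B and ANLN are among the members with the largest differences between the isoforms, and SMC4 is the member that went against the others. ANLN and SMC4 had no CCAAT box in these windows.
CCNB1 (chr5:69166970-69167149, plus strand): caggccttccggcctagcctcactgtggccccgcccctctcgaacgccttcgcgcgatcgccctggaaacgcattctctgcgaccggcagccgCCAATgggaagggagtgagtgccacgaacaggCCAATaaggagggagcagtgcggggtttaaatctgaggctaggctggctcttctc
CCNB2 (chr15:59104966-59105145, plus strand): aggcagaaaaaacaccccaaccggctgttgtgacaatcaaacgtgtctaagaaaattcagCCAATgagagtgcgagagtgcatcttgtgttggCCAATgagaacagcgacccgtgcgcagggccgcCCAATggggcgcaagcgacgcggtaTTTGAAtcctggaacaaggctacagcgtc
CDC25C (chr5:138331805-138331984, minus strand): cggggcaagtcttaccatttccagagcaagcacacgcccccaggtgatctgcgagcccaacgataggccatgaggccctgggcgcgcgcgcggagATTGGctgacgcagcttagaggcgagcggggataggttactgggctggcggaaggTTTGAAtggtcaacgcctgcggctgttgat
TOP2A (chr17:40417897-40418076, minus strand): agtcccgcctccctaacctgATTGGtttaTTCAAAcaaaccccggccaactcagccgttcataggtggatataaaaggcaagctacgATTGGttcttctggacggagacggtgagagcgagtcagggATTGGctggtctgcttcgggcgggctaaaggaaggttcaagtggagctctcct
PLK1 (chr16:23678709-23678888, plus strand): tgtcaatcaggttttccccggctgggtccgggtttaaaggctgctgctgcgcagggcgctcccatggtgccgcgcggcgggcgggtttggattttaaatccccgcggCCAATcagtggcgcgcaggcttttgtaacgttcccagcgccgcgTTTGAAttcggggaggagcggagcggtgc
HJURP (chr2:233854536-233854715, minus strand): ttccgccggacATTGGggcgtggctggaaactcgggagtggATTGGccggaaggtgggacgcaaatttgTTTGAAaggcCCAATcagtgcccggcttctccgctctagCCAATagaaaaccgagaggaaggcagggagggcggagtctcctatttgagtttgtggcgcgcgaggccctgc
ESPL1 (chr12:53268119-53268298, plus strand): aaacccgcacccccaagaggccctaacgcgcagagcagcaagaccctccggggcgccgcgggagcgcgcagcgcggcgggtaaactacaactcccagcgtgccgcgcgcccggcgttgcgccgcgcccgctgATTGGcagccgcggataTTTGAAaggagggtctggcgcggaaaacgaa
KIF18B (chr17:44947774-44947953, minus strand): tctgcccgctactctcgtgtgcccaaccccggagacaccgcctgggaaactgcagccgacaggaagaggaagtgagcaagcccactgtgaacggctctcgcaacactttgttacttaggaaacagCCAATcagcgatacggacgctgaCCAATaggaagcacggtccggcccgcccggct
ANLN (chr7:36389682-36389861, plus strand): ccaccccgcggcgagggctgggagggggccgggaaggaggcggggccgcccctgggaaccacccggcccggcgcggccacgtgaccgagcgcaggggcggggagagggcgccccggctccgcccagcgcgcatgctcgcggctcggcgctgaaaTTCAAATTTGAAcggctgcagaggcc
SMC4 (chr3:160399470-160399649, plus strand): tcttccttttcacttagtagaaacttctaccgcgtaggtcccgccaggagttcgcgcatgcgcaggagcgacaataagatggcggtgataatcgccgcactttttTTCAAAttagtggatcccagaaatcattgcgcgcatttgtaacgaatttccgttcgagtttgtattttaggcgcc

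CCNB2 carries CCAAT boxes that begin at positions -120, -87 and -54 from the transcript start, 33 bases apart, followed by a CHR element at -29. HJURP has 4 CCAAT boxes, at -169, -139, -101 and -72, of which 2 are on each strand. All 4 boxes of TOP2A, at -244, -160, -93 and -53, read ATTGG, and the first of them lies upstream of the stretch printed. The promoters of PLK1 and ESPL1 share a simpler layout, with 1 CCAAT box at -73 and -48 and 1 CHR element at -29 and -31. KIF18B has boxes at -55 and -32, and its CHR element begins 3 bases into the transcript, outside the stretch shown.

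The promoter table holds windows from 250 bases before to 50 bases after the start for 45 of the 54 members. A CCAAT box on either strand was found in 36 of these 45 members (80%), against 39.7% of the 27305 genes in the table. On the forward strand alone the share was 48.9%, against 23.3%. A CHR element was present in 35 members (77.8%, against 19.5%), and both motifs in 28 (62.2%, against 7.85%). More than 1 CCAAT box was found in 24 members (53.3%, against 12.9%). Counted by window, where genes with several starts weigh more, 41 of 58 windows of the members held a CCAAT box (70.7%), against 34.6% of 35116. Of the 88 CCAAT matches in the windows of the members, 65 began within 120 bases before the start. Matches were counted per window, so a site in overlapping windows of 1 gene (AURKB, CDC25C and PTTG1) was counted more than once. The run CCAATTGG, as in HMMR and PTTG1, was counted on each strand. A CCAAT and a CHR match shared bases in 2 cases. The list was drawn up with CCAAT promoters in mind, so these shares describe it and test nothing, and a match is a run of letters, not a measured binding site.

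Between 18076979 and 27163976 expected counts were assigned per library. NFYA, whose reads here can come from the insert or the endogenous gene, rose in both overexpressing groups, from 89.2 to 96.7 CPM (reads scaled to library size) in Empty to 286.9, 383 and 353 CPM in NF-YAl A, B and D and 254 to 264 CPM in NF-YAs, with a log2 fold change (log2FC) of 1.89 and 1.51. NFYB and NFYC did not pass the test in any comparison, but their log2FCs were positive. The lower and the higher of their values were 0.43 and 0.62 for NF-YAl minus Empty and 0.17 and 0.21 for NF-YAs minus Empty. For all 3 subunits every NF-YAl library lay above every Empty library, as for 21.0% of all tested genes. Between the isoforms the 3 subunits were 0.26 to 0.41 higher in NF-YAl, and none passed the test. The epithelial keratins KRT8 and KRT18 were abundant in every library, from 109 to 374.9 CPM. Of 9 markers of blood, endothelial and stromal cells, 7 had a mean under 1 CPM in every group, and PECAM1 and VWF reached 7.32 and 7.31 CPM in single Empty libraries. In a principal component analysis of all tested genes, NF-YAl D and A lay at opposite ends of the third component, at -47.5 and 30.9, with the other 7 libraries between -4.94 and 7.52.

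The members were low in NF-YAl A and B, and in NF-YAl D they were on average at the level of Empty. Taking each member as its log2 level minus the mean of the Empty libraries, the median over the 54 genes was -1.06 in NF-YAl A, -0.35 in B and 0.00 in D. In NF-YAs A, B and C it was 0.26, 0.09 and 0.13. Over all tested genes it lay between -0.01 and 0.02 in every library. The members took 0.231%, 0.316% and 0.428% of all counts in NF-YAl A, B and D, against 0.34 to 0.374% in Empty and 0.441 to 0.483% in NF-YAs. In such bulk RNA, fewer dividing cells and less RNA per dividing cell cannot be told apart.

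**Figure D1:**
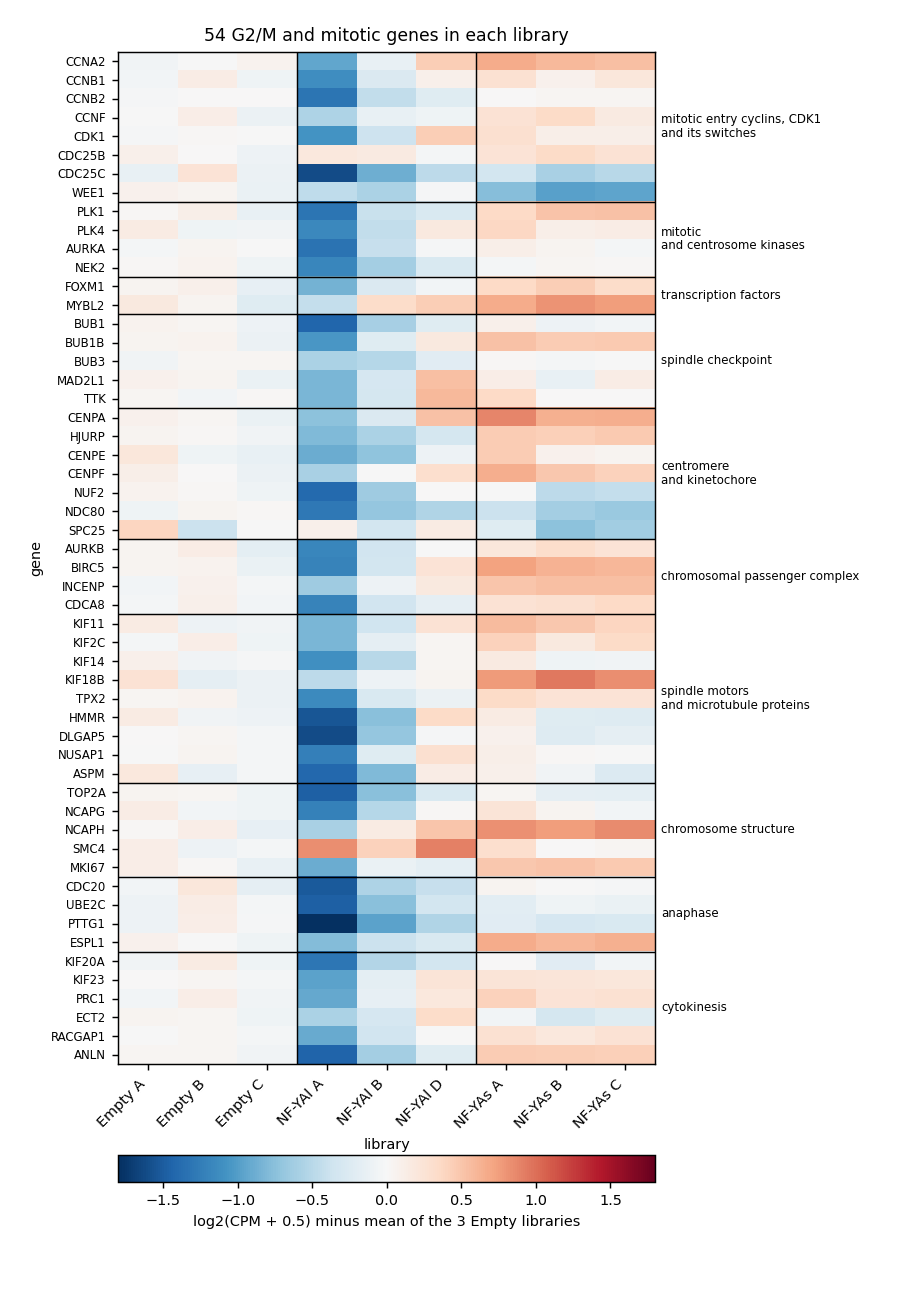
Levels of the 54 members (y axis, grouped by role) in the 9 libraries (x axis), as log2(CPM + 0.5) minus the mean of the 3 Empty libraries (colour, blue below and red above). The column of NF-YAl A is blue for nearly every gene, with a median of -1.06, while that of NF-YAl D is mixed, with a median of 0.00.

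NF-YAl A had the lowest level of all 9 libraries for 50 of the 54 members, a pattern seen in 21.6% of all tested genes. The exceptions were CDC25B, WEE1, SPC25 and SMC4. The order A below B below D held for 49 members, against 25.2% of all genes, and the others were those 4 genes and MKI67. Neither pattern was particular to the members. NF-YAl A was lowest for 47 of 50 S phase and replication genes (94%) and for 65 of 85 other mitotic genes (76.5%). The order A below B below D held for 82% and 74.1% of these. Compared with Empty, 51 members in NF-YAl A, 46 in B and 17 in D lay below every Empty library, while 19 in D lay above all of them. Of all tested genes, 40.6%, 37.7% and 37.2% lay below every Empty library in A, B and D, and 38% lay above in D. The counts of members in D, unlike those in A and B, thus lay under the share of all genes. The members also varied more from library to library within NF-YAl. The SD of each member over the 3 libraries had a median of 0.570 on the log2 scale, against 0.104 in Empty and 0.089 in NF-YAs. In NF-YAl this median was 0.186 for all genes of at least 10 CPM, 0.392 for the S phase and replication genes and 0.328 for the other mitotic genes. The first principal component of the 54 genes held 81.1% of their variance, and along it NF-YAl A stood at 7.18, B at 2.21 and D at -0.685, with Empty between -1.03 and -0.2 and NF-YAs between -2.66 and -1.95. Within NF-YAl, the share of ribosomal RNA in the counts also ran in the order of the letters, at 5.27%, 3.7% and 2.66% in A, B and D. It was 7.71%, 3.77% and 3.37% in Empty A, B and C and 4.15%, 4.89% and 4.29% in NF-YAs A, B and C. Empty A had the highest share, with the median of the members at 0.04. NFYA and the mean fragment length (157.8, 160.1 and 146.2 bases) of the NF-YAl libraries did not follow the order of the letters. The part of these values in the pattern was not tested.

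The comparison of NF-YAl with Empty sets the cell population carrying the long isoform against that without an insert. Of the 54 members, 5 fell and 1 rose at an adjusted p under 0.01, against 9.54% and 10% of all tested genes. PTTG1, CDC25C, NDC80, HJURP and BUB3 were lower and SMC4 was higher. PTTG1 alone passed the limits of a DEG (adjusted p under 0.01 and a |log2FC| above 1), as did 3.50% of all genes in that direction and 4.76% in the other. The log2FC was negative for 50 members, with a median of -0.38 over the 54, against 0.01 over all genes. In 16 members every NF-YAl library lay below every Empty library and in 1 every one lay above, against 21.4% and 21.0% of all genes. DESeq2, the tool named in the study's methods, called 11 members lower, against 10.8% of all the genes it tested. The count of lower members depended on the library left out. It was 6 without NF-YAl A, 1 without B and 31 without D (9.27%, 7.08% and 12.2% of all genes). Without Empty A, B and C it was 1, 0 and 1 (7.06%, 5.96% and 5.77%), and without any single NF-YAs library 3 (7.74 to 8.18%). Only SMC4 kept its call in all of these fits.

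Between NF-YAs and Empty the median went the other way. KIF18B, NCAPH, MYBL2, ESPL1 and HJURP rose and WEE1 fell, which is 5 and 1 of the 54 members, against 12.1% and 10.5% of all tested genes, and none was a DEG (5.44% of all genes were higher and 3.90% lower by that rule). At an unadjusted p under 0.05, 16 members were higher and 3 lower, against 23.1% and 21.9% of all genes. The median log2FC was 0.19, with 39 members positive. In 26 members every NF-YAs library lay above every Empty library and in 4 below, against 29.2% and 27.1% of all genes. The 5 higher members became 15 without NF-YAl A and 11 without NF-YAl D, each against 15.3% of all genes. These libraries enter this contrast only through the spread, scaling and filter that all groups share. The count was 1 or 2 when NF-YAl B or any Empty or NF-YAs library was left out, against 7.20 to 11.3% of all genes. KIF18B and WEE1 kept their calls in every one of these fits.

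The isoforms were also set against each other, in a comparison that shares its libraries with those above. ESPL1, ANLN, PLK1, KIF18B, HJURP, MKI67 and FOXM1 were lower in NF-YAl than in NF-YAs and SMC4 was higher, which is 7 and 1 of the 54 members, against 6.25% and 4.70% of all tested genes. The first 5 were DEGs, against 2.86% of all genes in that direction and 1.74% in the other. The median log2FC was -0.59, with 50 members negative, against 0.02 over all genes. In 34 members every NF-YAl library lay below every NF-YAs library, against 20.9% of all genes, and in 2, WEE1 and SMC4, above (18.6%). DESeq2 called 22 members lower, against 8.56% of all the genes it tested. Without NF-YAl A there were 13 lower members and no DEG among them, against 6.33% of all genes, and without NF-YAl D there were 44, against 8.81%. Without NF-YAl B there were 5 (4.57% of all genes), and without NF-YAs A, B and C 4, 3 and 3 (3.95%, 3.29% and 2.97%). ESPL1, HJURP and KIF18B kept their calls throughout.

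**Figure D2:**
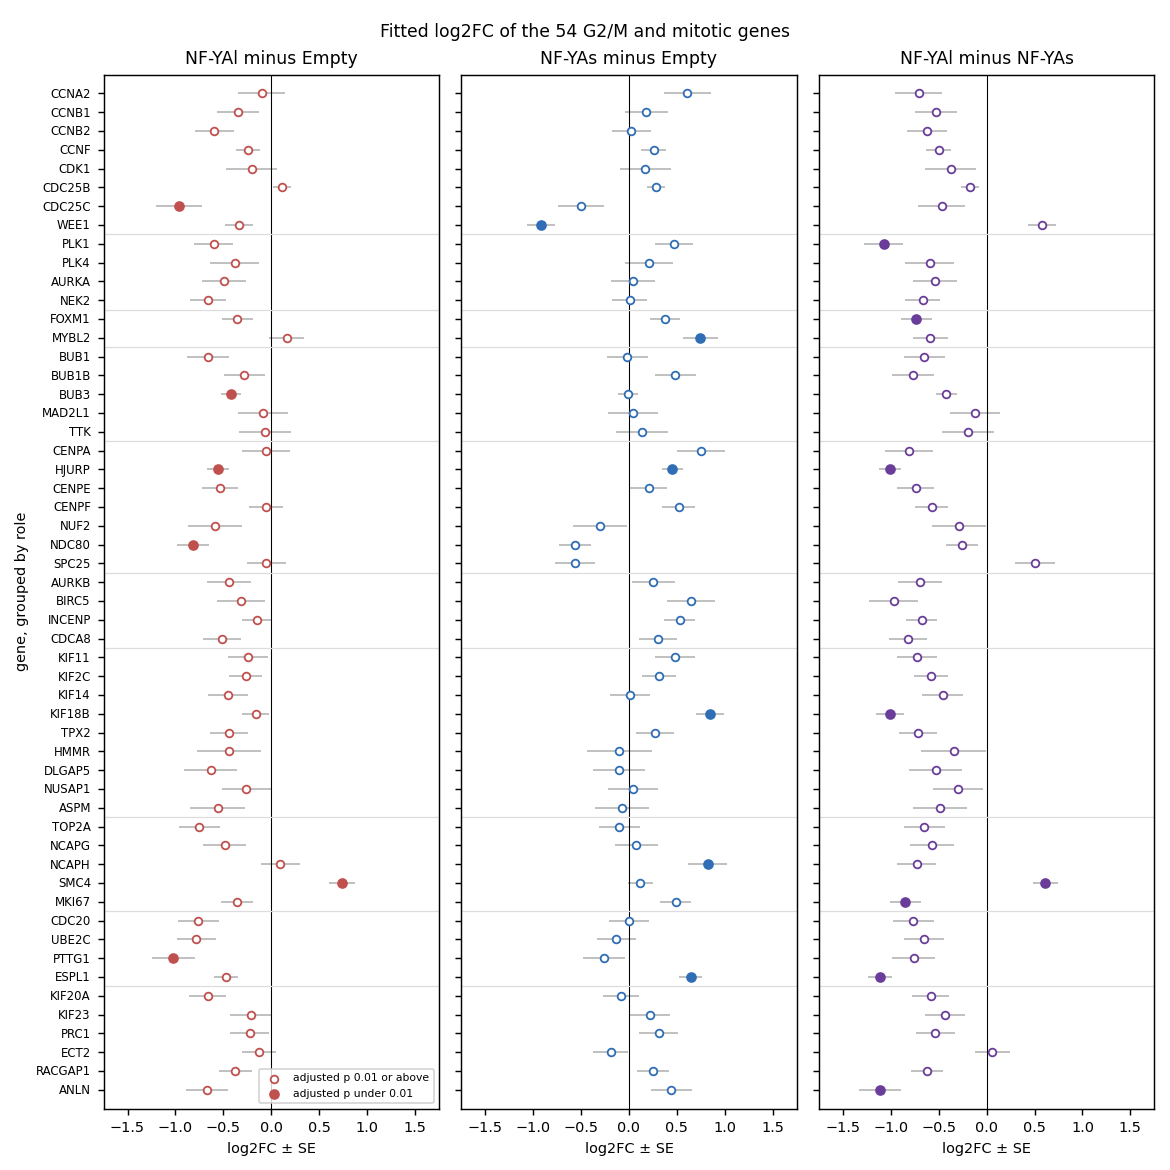
Fitted log2FC (x axis) of each member (y axis, grouped by role) in the 3 comparisons, with its SE as a bar; filled circles have an adjusted p under 0.01. In the comparison of NF-YAl with NF-YAs, 50 of the 54 genes lie left of 0 and 7 of them pass the threshold.

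Among the genes of mitotic entry, the median of the 8 members lay below Empty in NF-YAl A (-1.004) and B (-0.32) and near it in D (-0.03). CCNB1 was measured at 60.4, 68.7 and 59.0 CPM in Empty, at 28.5, 52.3 and 67.0 CPM in NF-YAl A, B and D and at 75.7, 65.9 and 71.8 CPM in NF-YAs. Its NF-YAl libraries thus ran from below every other library up to the Empty range, and no comparison passed the test (NF-YAl minus Empty -0.35 ± 0.22, adjusted p = 0.264). CCNB2 stood at 22.6, 23.2 and 23.0 CPM in Empty, 8.96, 16.7 and 19.7 CPM in NF-YAl and 23.1, 23.5 and 23.4 CPM in NF-YAs, so that all NF-YAl libraries lay below all others, with an adjusted p of 0.0462. CDK1, the kinase that the B-type cyclins activate, had 77.8, 80.1 and 78.6 CPM in Empty and 96.3, 85.2 and 84.7 CPM in NF-YAs. In NF-YAl A, B and D it had 37.2, 60.6 and 107 CPM, so that this group held both its lowest and its highest library. No comparison of CDK1 passed the test.

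CDC25C was lower in NF-YAl, at 4.03, 7.03 and 9.45 CPM, than in Empty, at 12.1, 15.9 and 12.4 CPM, with a log2FC of -0.96 ± 0.24 (adjusted p = 0.00924), 1.95-fold lower. The NF-YAs libraries, at 10.5, 8.76 and 9.31 CPM, also lay below every Empty library (log2FC -0.50, adjusted p = 0.125). The call for CDC25C in NF-YAl was lost without any one Empty or NF-YAs library and without NF-YAl B. CDC25B, a phosphatase of the same family, was 1 of 3 members above the Empty mean in NF-YAl A, where it had 210.3 CPM against 172.4 to 195 CPM in Empty. WEE1, the kinase that holds CDK1 inactive, was the member that fell in NF-YAs: it had 32.7, 32.0 and 28.4 CPM in Empty and 17.99, 15.5 and 15.8 CPM in NF-YAs, with a log2FC of -0.92 ± 0.15 (adjusted p = 0.000464). In NF-YAl it had 22.4, 20.7 and 30.4 CPM, all above NF-YAs, with an adjusted p of 0.0145 for that difference. CCNA2, the cyclin of S phase and early mitosis, had NF-YAs libraries (32.4 to 35.4 CPM) above every other library, with an adjusted p of 0.0711 against Empty.

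The mitotic kinases PLK1, PLK4, AURKA and NEK2 moved together in NF-YAl A, where all 4 were between -1.33 and -1.16 from the Empty mean. PLK1, which acts from mitotic entry to cytokinesis, had 42.0, 44.6 and 37.5 CPM in Empty, 16.2, 31.2 and 33.9 CPM in NF-YAl and 53.0, 58.8 and 60.0 CPM in NF-YAs. The 3 groups did not overlap, with NF-YAl lowest and NF-YAs highest. The isoforms differed by -1.07 ± 0.21 (adjusted p = 0.00321, 2.1-fold lower in NF-YAl), a call that was lost without NF-YAs B or C. Neither isoform differed from Empty past the threshold (adjusted p = 0.0404 for NF-YAl and 0.0901 for NF-YAs).

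MYBL2 and FOXM1 encode transcription factors of the late cell cycle program. MYBL2 rose in NF-YAs, from 46.0, 42.2 and 35.0 CPM in Empty to 65.1, 71.8 and 69.3 CPM, with a log2FC of 0.74 ± 0.18 (adjusted p = 0.00785, 1.67-fold). In NF-YAl it had 30.3, 51.2 and 55.6 CPM, so that A lay below and B and D above the Empty libraries. The call for MYBL2 was lost without any Empty or NF-YAs library and without NF-YAl B. FOXM1 had 73.1, 75.7 and 64.0 CPM in Empty, 39.1, 58.8 and 68.2 CPM in NF-YAl and 90.5, 96.7 and 88.8 CPM in NF-YAs. It differed between the isoforms by -0.73 ± 0.16 (adjusted p = 0.00748), a call lost in 7 of the 9 fits that left out a library. Exons of FOXM1 overlap ITFG2 on the other strand (mean of 11.8 CPM), which did not pass the test in any comparison.

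**Figure D3:**
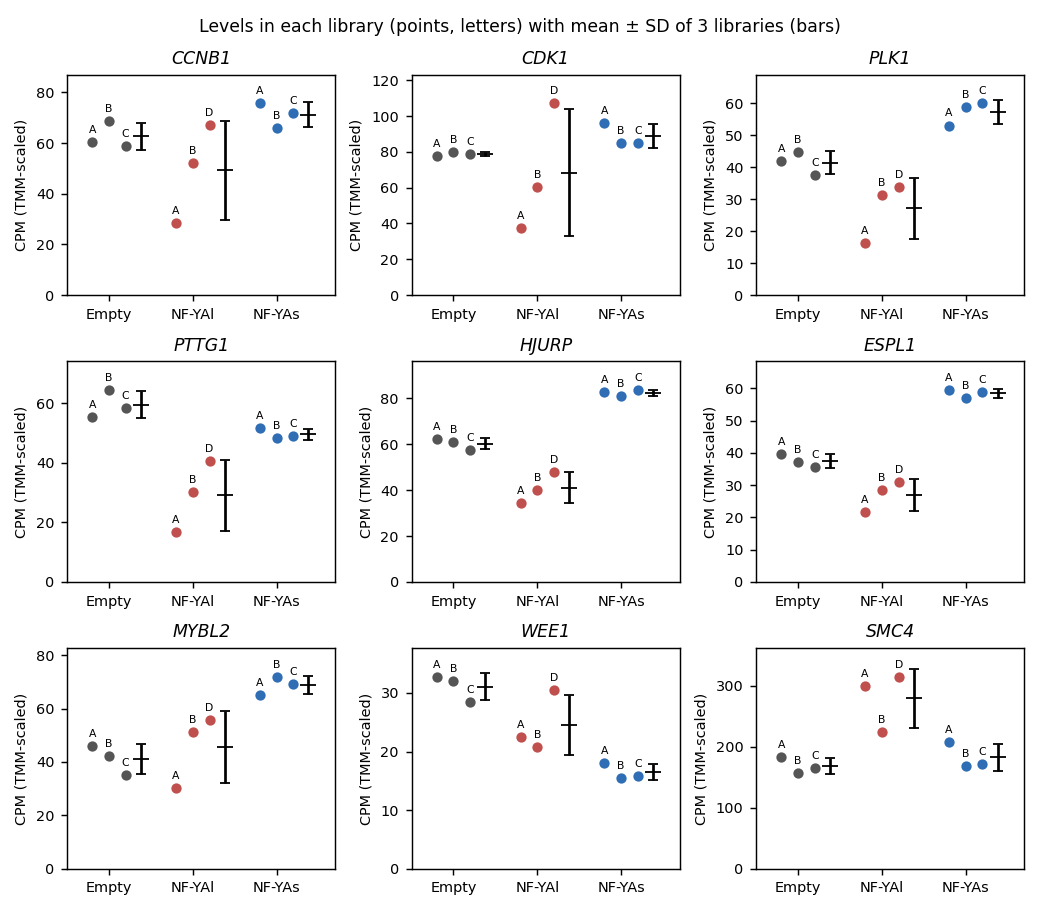
CPM after TMM scaling (y axes, from 0) of 9 members in the 3 libraries of each group (points with their letters), with the mean ± SD of the group (bars). For CDK1 the NF-YAl libraries range from 37.2 to 107 CPM around Empty libraries of 77.8 to 80.1 CPM, while for ESPL1 and HJURP the 3 groups do not overlap.

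The spindle checkpoint genes BUB1, BUB1B, BUB3, MAD2L1 and TTK all lay below every Empty library in NF-YAl A and B, and 3 of them, BUB1B, MAD2L1 and TTK, lay above every Empty library in NF-YAl D. For a single library these positions are common, at 40.6% and 37.7% of all tested genes for A and B and 38% for D. MAD2L1 and TTK were at 0.54 and 0.58 above the Empty mean in D. BUB3, which brings the BUB kinases to kinetochores, fell in NF-YAl, with 87.1, 90.8 and 113 CPM against 124.8, 133 and 132.8 CPM in Empty and 131.9, 127 and 129.8 CPM in NF-YAs. Its change was small (-0.42 ± 0.11, adjusted p = 0.00864, 1.34-fold lower), but its NF-YAl libraries did not overlap with those of either other group. The call was lost in 8 of the 9 fits that left out a library, all but that without NF-YAl D.

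Of the 7 centromere and kinetochore members, HJURP and NDC80 fell in NF-YAl and HJURP rose in NF-YAs. HJURP is the chaperone that loads CENPA, the centromeric histone variant, onto chromosomes. It had 62.2, 61.0 and 57.5 CPM in Empty, 34.6, 40.2 and 48.0 CPM in NF-YAl and 82.7, 80.9 and 83.6 CPM in NF-YAs. The 3 groups were separate in every library, and HJURP passed the test in each comparison: -0.56 ± 0.11 for NF-YAl minus Empty (adjusted p = 0.00273), 0.45 ± 0.11 for NF-YAs minus Empty (adjusted p = 0.0077) and -1.01 ± 0.11 between the isoforms (adjusted p = 0.000112, 2.01-fold lower in NF-YAl). The first call was lost without Empty A or B or NF-YAl B, and the second without any single Empty or NF-YAs library and without NF-YAl B, while the last held in every such fit. Its exons overlap MROH2A on the other strand, which had a mean of 2.57 CPM. CENPA itself was higher in all NF-YAs libraries (19.2 to 22.6 CPM) than in all Empty libraries (11.1 to 12.8 CPM), with an adjusted p of 0.0338.

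NDC80, which binds microtubules at the outer kinetochore, had 29.4, 32.0 and 31.4 CPM in Empty, 12.4, 18.9 and 21.1 CPM in NF-YAl and 23.5, 20.1 and 19.2 CPM in NF-YAs. It was low in both isoforms, and their ranges overlapped. The log2FC was -0.82 ± 0.17 in NF-YAl (adjusted p = 0.00278) and -0.56 ± 0.17 in NF-YAs (adjusted p = 0.0196). The call in NF-YAl was lost without Empty B or C. Its partners NUF2 and SPC25 had log2FCs of -0.30 and -0.56 in NF-YAs that did not pass the test, with SPC25 ranging from 17.96 to 31.0 CPM within Empty alone.

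The chromosomal passenger complex places the kinase AURKB at centromeres together with INCENP, BIRC5 (survivin) and CDCA8 (borealin). In all 4 members every NF-YAs library lay above every Empty library, with log2FCs of 0.25 to 0.65, and every NF-YAl library lay below every NF-YAs library, with log2FCs of -0.97 to -0.68. Of all tested genes, 29.2% had the first position and 20.9% the second. None of the 4 passed the threshold in any comparison, and the lowest adjusted p values were those of INCENP and CDCA8 between the isoforms (0.0101 and 0.0122). BIRC5 had 174.5, 175.3 and 155.5 CPM in Empty, 72.5, 133 and 198.9 CPM in NF-YAl and 278, 258.8 and 255.6 CPM in NF-YAs.

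Among the 9 spindle motors and microtubule proteins, KIF18B stood out in NF-YAs. This kinesin, which trims the plus ends of astral microtubules, had 66.3, 49.6 and 51.6 CPM in Empty, 94.4, 106.9 and 99.5 CPM in NF-YAs and 39.7, 51.9 and 57.6 CPM in NF-YAl. It rose by 0.85 ± 0.14 in NF-YAs (adjusted p = 0.000756, 1.8-fold) and differed between the isoforms by -1.01 ± 0.15 (adjusted p = 0.000591), while its NF-YAl libraries overlapped with Empty. None of the other 8 passed the threshold in any comparison. All 9 lay below every Empty library in NF-YAl A, with a median of -1.14, and none did in D, against 40.6% and 37.2% of all genes. HMMR and DLGAP5, which act in spindle assembly, were among the deepest in A: HMMR had 13 CPM there and 49.6 CPM in D, against 36.5 to 43.0 CPM in Empty.

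The chromosome structure genes were mixed. TOP2A had 194.9, 193.8 and 179 CPM in Empty, 68.0, 112.6 and 156.8 CPM in NF-YAl and 193.8, 168.7 and 167 CPM in NF-YAs. Its NF-YAl libraries all lay below the others, with a log2FC of -0.75 ± 0.22 against Empty (adjusted p = 0.0195). MKI67, the gene of the Ki-67 proliferation antigen, had 310.2, 291 and 260.1 CPM in Empty, 154.8, 263.4 and 252.8 CPM in NF-YAl and 400.9, 410.0 and 396.4 CPM in NF-YAs. The isoforms differed in MKI67 by -0.85 ± 0.16 (adjusted p = 0.00357), which was lost without any single NF-YAs library. NCAPH, a condensin I subunit, rose in NF-YAs, with 39.9, 37.97 and 40.4 CPM against 22.6, 24.2 and 20.1 CPM in Empty (0.82 ± 0.20, adjusted p = 0.00807). The call was lost without any Empty or NF-YAs library and without NF-YAl B, and in NF-YAl NCAPH had 14.8, 24.8 and 31.7 CPM.

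SMC4, a core subunit of both condensins, was the member that rose in NF-YAl. It had 182.4, 157.7 and 164.4 CPM in Empty, 299.9, 224 and 314 CPM in NF-YAl and 207.7, 167.9 and 172.2 CPM in NF-YAs. All NF-YAl libraries, A included, lay above all others, and the log2FC was 0.73 ± 0.13 against Empty (adjusted p = 0.00139, 1.66-fold) and 0.61 ± 0.13 against NF-YAs (adjusted p = 0.00684). The latter call was lost without Empty B or C, NF-YAl A or D, or NF-YAs B or C. Exons of TRIM59 and IFT80 overlap SMC4 on the other strand. They moved with it in NF-YAl, by 0.87 (adjusted p = 0.0031) and 0.92 (adjusted p = 0.000611) against Empty, at means of 23.98 and 37.4 CPM. Their part in the value of SMC4 was not tested, and whether counting used the strand is not given in the sources used here.

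The genes of anaphase were the only role group whose every member lay below every Empty library in all 3 NF-YAl libraries, as 21.4% of all genes did. CDC20 activates the anaphase-promoting complex, UBE2C is its ubiquitin-conjugating enzyme, and PTTG1 (securin) holds back ESPL1 (separase), the protease that cuts cohesin. The medians of the 4 genes were -1.49, -0.66 and -0.37 in NF-YAl A, B and D. PTTG1 fell most of all members: it had 55.5, 64.4 and 58.4 CPM in Empty, 16.7, 30.2 and 40.5 CPM in NF-YAl and 51.6, 48.2 and 48.98 CPM in NF-YAs. Its log2FC of -1.02 ± 0.22 (adjusted p = 0.00434) made it 2.03-fold lower, a call that was lost without any single Empty library and without NF-YAl B. PTTG1 has near-identical gene copies, so its estimated counts are uncertain. CDC20 and UBE2C had log2FCs of -0.76 and -0.78 with adjusted p values of 0.0175 and 0.0128.

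ESPL1 was the member with the largest difference between the isoforms. It had 39.6, 37.1 and 35.5 CPM in Empty, 21.5, 28.4 and 30.9 CPM in NF-YAl and 59.4, 57.0 and 58.8 CPM in NF-YAs. The 3 groups did not overlap. ESPL1 rose in NF-YAs by 0.64 ± 0.12 (adjusted p = 0.00147), a call lost without Empty C, and had -0.47 ± 0.12 in NF-YAl (adjusted p = 0.0111). Between the isoforms it differed by -1.11 ± 0.12 (adjusted p = 9.6e-05, 2.16-fold lower in NF-YAl). Its inhibitor PTTG1, by contrast, lay below every Empty library in NF-YAs (48.2 to 51.6 CPM) without passing the test (adjusted p = 0.389).

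The cytokinesis genes KIF20A, KIF23, PRC1, ECT2, RACGAP1 and ANLN build the central spindle and the contractile ring. All 6 lay below every Empty library in NF-YAl A and B, with medians of -0.94 and -0.32, where 40.6% and 37.7% of all genes did. In D, 3 of them lay above every Empty library, as did 38% of all genes. ANLN, which links actin, myosin and septins in the ring, had 141.6, 141.8 and 131.9 CPM in Empty, 50.4, 90.8 and 119.5 CPM in NF-YAl and 189.5, 188.9 and 186.4 CPM in NF-YAs. It differed between the isoforms by -1.11 ± 0.22 (adjusted p = 0.00394), which was lost without NF-YAl B or any single NF-YAs library. ECT2, the exchange factor that starts furrowing, had the smallest difference between the isoforms of the 54 (0.06 ± 0.18).

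Members with and without a CCAAT box in the promoter window had similar medians. The 36 members with a box had median log2FCs of -0.37 for NF-YAl minus Empty, 0.20 for NF-YAs minus Empty and -0.61 between the isoforms. The 9 members without one had -0.49, 0.20 and -0.58. With a box, 3 members fell in NF-YAl, 4 rose in NF-YAs and 5 were lower in NF-YAl than in NF-YAs. Without one, SMC4 rose and NDC80 fell in NF-YAl, MYBL2 rose in NF-YAs, and between the isoforms SMC4 was higher and ANLN lower in NF-YAl. The difference between these subsets was not tested.

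In Empty, the level of the members per transcript length spanned a wide range. UBE2C was highest, at 109 ± 9.74 CPM per kb (SD, n = 3), followed by PTTG1 (95.1 ± 7.62) and BUB3 (74.8 ± 4.12). PLK4 (3.99 ± 0.359) and NCAPH (3.80 ± 0.354) were lowest, and their libraries overlapped. In this order of 54 genes, 45 of the 53 neighbouring pairs overlapped in their Empty libraries. The median was 16.6 CPM per kb, against 6.85 for all tested genes, and 48 members were above the latter.

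Transcript shares could be compared for 73 transcripts of 31 members, each taking at least 10% of its gene. Differences of at least 20 percentage points between groups were seen for 4 transcripts of CDC25C, HMMR and NCAPH, and no exact permutation test of 3 against 3 libraries can give a two-sided p below 0.1. NM_001142557.1 of HMMR, 2914 bases long, took 16.2%, 18.4% and 14.5% of the gene in Empty and 29.1%, 17.4% and 29.4% in NF-YAl, but 0%, 0% and 0.02% in NF-YAs (exact p = 0.1 for NF-YAs against either group). RSEM assigned reads among near-identical transcripts here. For NM_001790.4 of CDC25C the libraries overlapped, with 23.9 to 41.8% in Empty, 30.9 to 74.0% in NF-YAl and 21.6 to 38.6% in NF-YAs. For the NCAPH pair the NF-YAl libraries alone spanned 0 to 35.0% and 54.9 to 100%.

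Genes of the same process outside the list moved in the same pattern of libraries, at smaller size. Of 85 other mitotic genes, 3 fell and 2 rose in NF-YAl, against 9.54% and 10% of all tested genes. In NF-YAs 8 rose and 2 fell, against 12.1% and 10.5%. Between the isoforms 8 were lower in NF-YAl and none higher, against 6.25% and 4.70%. At an unadjusted p under 0.05, 4 were higher and 33 lower in that comparison, against 17.7% and 18.8% of all genes. Their medians were -0.50, -0.14 and 0.09 in NF-YAl A, B and D. TROAP, a spindle-associated protein, had 30.2, 29.3 and 26.1 CPM in Empty, 11.4, 19.2 and 20.4 CPM in NF-YAl and 36.5, 35.4 and 36.2 CPM in NF-YAs, and differed between the isoforms by -1.08 (adjusted p = 0.00115). CENPN, a kinetochore protein, fell in both, with log2FCs of -0.76 in NF-YAl (adjusted p = 0.000305) and -0.45 in NF-YAs (adjusted p = 0.00779). CCNB3, another B-type cyclin, rose from at most 0.0839 CPM in Empty to 0.245 to 0.424 CPM in NF-YAl and 0.796 to 1.06 CPM in NF-YAs, which is low next to CCNB1. Of 50 S phase and replication genes, 5 fell and 1 rose in NF-YAl, 3 rose and 1 fell in NF-YAs, and 5 were lower in NF-YAl than in NF-YAs. For these counts the shares of all genes are those given above for the 85 genes. The medians of the S phase and replication genes in NF-YAl A, B and D were -0.59, -0.14 and 0.08.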

How the data were processed

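RNA-seq was analysed from MTSs of PC3 cells in 3 groups of 3 libraries. Groups and replicate letters came from the sample labels, which do not say whether libraries came from separate cultures, while the study's methods describe independent experiments; p-values measure the spread between these libraries. Per the labels and the study's methods, the authors made libraries from total RNA with a stranded kit and aligned reads to human transcripts of GRCh37 by bowtie2 within RSEM 1.3.1. They deposited an expected count and a TPM value per gene and per transcript in every library, and the percent of its gene's TPM that each transcript takes. Expected counts are estimates in which RSEM divided reads that match several transcripts, and are not normalized. The deposited lengths are in bases. Totals were 18076979 to 27163976 per library, so that counting error was small for most members.

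Expected counts were rounded and fitted for all 9 libraries together with edgeR 4.0.16 in R 4.3.3 (filterByExpr, TMM scaling, quasi-likelihood F test). This left 17108 of 27111 genes, over which p-values were adjusted by Benjamini-Hochberg. A gene rose or fell at an adjusted p under 0.01, and a DEG also had a |log2FC| above 1. The SE was |log2FC| over the square root of F. CPM are TMM-scaled, and single libraries were compared as log2(CPM + 0.5). A share of all genes printed beside a count is the percentage called by the same rule. Transcript shares were compared with exact two-sided permutation tests. Promoter windows came from the RefSeq table (GRCh38.p14), and overlapping exons from GENCODE on GRCh37. The members, lists, roles and rules were chosen with earlier results of these data known. Values in every library were given for CCNB1, CCNB2, CDK1, CDC25C, TOP2A, FOXM1, MYBL2 and MKI67 and, in each direction of each comparison, for the 5 or fewer called members of greatest |log2FC|; BIRC5 was added after its values were seen. Of other lists, up to 3 called genes per comparison could be named.

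Alternatives were DESeq2 1.42.0, edgeR scaled by relative log expression, unfiltered or with a minimum of 10 counts in every library, or with an offset for effective length. Further fits used only the 2 groups compared, took the replicate letter as block, relaxed the adjusted p to 0.05, or left out each library in turn. The deposited TPM was added after the data were seen. On simulated data for NF-YAl against Empty with 17108 genes, edgeR recovered 79 of 108 genes changed by 1 and 92 of 92 changed by 2 on the log2 scale. Genes were simulated independently and with the same dispersion in every group, unlike the members, whose SD was larger in NF-YAl. This recovery thus does not give the power for the members. Reads of the murine inserts cannot be told from endogenous NFYA. A withheld item is not reported here. Plots were made in matplotlib 3.10.9.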

Additional observations from a re-analysis of the deposited data

Results flagged for a closer look

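HJURP was the member that passed the test against Empty in opposite directions in the isoforms. Its log2FC between NF-YAl and NF-YAs was -1.01 ± 0.11 (edgeR, adjusted p = 0.000112). This difference follows from the opposite calls that singled HJURP out and uses the same libraries, so it is no separate support. The call in NF-YAl was lost without Empty A or B or NF-YAl B. The call in NF-YAs was lost without any single Empty or NF-YAs library and without NF-YAl B. HJURP was lower in 3 of 3 NF-YAl libraries (34.6 to 48.0 CPM) and higher in 3 of 3 NF-YAs libraries (80.9 to 83.6 CPM) than in any Empty library (57.5 to 62.2 CPM).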

How the results depend on the processing

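The calls among the 54 members depended strongly on the fit, while the medians kept their signs in all alternatives (-0.70 to -0.16, 0.12 to 0.22 and -0.95 to -0.37). Main counts of lower members in NF-YAl against Empty, higher and lower members in NF-YAs against Empty, and lower and higher members in NF-YAl against NF-YAs were 5, 5, 1, 7 and 1. The shares of all tested genes in that fit were 9.54%, 12.1%, 10.5%, 6.25% and 4.70%. DESeq2 gave 11, 6, 2, 22 and 2 (10.8%, 12.9%, 11.1%, 8.56% and 6.78% of the genes it tested). An adjusted p under 0.05 gave 15, 10, 2, 30 and 2, for which the shares of all genes are not given here. Fitting only the groups compared gave 1, 22, 3, 3 and 0 (6.24%, 18.9%, 17.2%, 3.75% and 2.46% of all genes). That fit had 0 DEGs in the first comparison and 3 in the last (main 1 and 5). Without a filter 11 members were lower between the isoforms (4.82% of all genes), and with the length offset 3 were DEGs. Leaving out each library gave 0 to 31, 1 to 15, 1 to 2, 3 to 44 and 0 to 2, with 0 to 8 and 0 to 15 DEGs. The shares of all genes called in these fits were 5.77 to 12.2%, 7.20 to 15.3%, 6.28 to 13.5%, 2.97 to 8.81% and 1.74 to 6.99%. The labels do not say what the replicate letters share. Residual correlations between groups were -0.0652 to 0.253 for the same letter, over 0.1 in 3 and below 0 in 2 of 7 pairs. For different letters they were -0.22 to 0.163, over 0.1 in 1 (NF-YAs A with NF-YAl D) and below 0 in 12 of 20. Same-letter pairs were thus more often positive. Whether libraries of a letter share an effect was not tested, and the main fit did not take the letters as pairs. With the letter as a replicate block, which takes NF-YAl D out of the contrasts, the counts were 33, 11, 3, 43 and 1 (12.6%, 16.3%, 14.8%, 9.43% and 7.01% of all genes), with 12 and 22 DEGs. Of 2200 refits of named genes, 1902 kept direction and side of the threshold, 195 lost and 92 gained a call, and 11 changed sign; the cause was not tested. The last were small log2FCs. For NF-YAl minus Empty, leaving out each library gave -0.683 to 0.090 for CDK1, -0.003 to 0.382 for MYBL2, -0.167 to 0.339 for NCAPH and -0.025 to 0.478 for MCM10, and the block gave -0.081, -0.215 and -0.079 for the last 3. For NF-YAs minus Empty BUB3 ranged from -0.033 to 0.009 (0.009, 0.007 and 0.009 without Empty B, Empty C and NF-YAs B), and between the isoforms GADD45A from -0.302 to 0.041. On the deposited TPM the median of all genes in NF-YAl D shifted by 0.72, and the members relative to it stood at -1.005, -0.34 and 0.08 in NF-YAl A, B and D. Strand use, overlapping genes and 3 libraries per group limit all values.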

Other observations

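Genes that restrain the G2/M transition were measured beside the members. Of 14 tested genes of this kind, 2 fell and 1 rose in NF-YAl by edgeR at an adjusted p under 0.01. By this rule 9.54% and 10% of all tested genes did so. In NF-YAs 4 fell and 1 rose, against 10.5% and 12.1%. Between the isoforms 5 were higher in NF-YAl and none lower, against 4.70% and 6.25%. At an unadjusted p under 0.05, 6 were higher and 3 lower in that comparison, against 17.7% and 18.8% of all tested genes. The stress genes GADD45A and GADD45B fell in both groups. GADD45B had 51.3, 54.3 and 78.4 CPM in Empty, 19.3, 29.9 and 37.3 CPM in NF-YAl and 19.0, 21.1 and 24.3 CPM in NF-YAs, with log2FCs of -1.09 (adjusted p = 0.00243) and -1.51 (adjusted p = 0.000252). The CDK inhibitor gene CDKN1B was at 25.7, 21.6 and 31.6 CPM in NF-YAl and at 15.7, 14.4 and 14.9 CPM in NF-YAs, a difference of 0.81 (adjusted p = 0.00181), with Empty at 20.1 to 23.4 CPM. CHEK2, a DNA damage checkpoint kinase, had 13.3, 27.7 and 30.1 CPM in NF-YAl and 10.51 to 12.2 CPM in NF-YAs, and it was higher in NF-YAl by 1.10 (adjusted p = 0.00618). RPRM, known as a G2 arrest gene, was low everywhere but reached 2.71, 1.55 and 0.822 CPM in NF-YAl A, B and D, against at most 0.315 CPM in Empty.

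A further 11 genes were those of the repressor complex that binds CHR elements and of its E2F partners. Of these, 2 fell and 2 rose in NF-YAl, against 9.54% and 10% of all tested genes. In NF-YAs 1 fell and 1 rose, against 10.5% and 12.1%. Between the isoforms none passed the test by edgeR, against 6.25% lower and 4.70% higher. At an unadjusted p under 0.05, 3 were higher and 1 lower in that comparison, against 17.7% and 18.8%. RBL2 (p130), the pocket protein of that complex, fell in both, from 78.6, 80.5 and 83.5 CPM in Empty to 51.1, 51.2 and 50.03 CPM in NF-YAl (log2FC -0.67, adjusted p = 7.67e-05) and 45.2, 43.4 and 42.4 CPM in NF-YAs (log2FC -0.89, adjusted p = 9.63e-06). Unlike the members, RBL2 had nearly the same level in NF-YAl A, B and D. E2F4 fell in NF-YAl (log2FC -0.80, adjusted p = 0.00386), with 43.3, 74.0 and 75.6 CPM against 105 to 117 CPM in Empty, and TFDP2 rose in both groups, by 1.04 and 0.71 on the log2 scale.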
